A study of Mus musculus with 12 samples.

Results

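The genes examined here encode the machinery of MHC class I antigen presentation: the classical heavy chains H2-K1 and H2-D1, the non-classical heavy chains H2-Q4 and H2-T23, the light chain B2m, the peptide transporter subunits Tap1 and Tap2, the loading factor Tapbp and the transactivator Nlrc5. They were taken by symbol from the table of estimated counts, where all 9 were found among 21956 genes. The libraries came from brain tissue next to the hematoma in a mouse model of intracerebral hemorrhage (ICH), in 4 groups of 3 mice: Sham-Fabp4fl/fl, Sham-Fabp4CKO, ICH-Fabp4fl/fl and ICH-Fabp4CKO. ICH was induced by collagenase in the right striatum and tissue was taken at 48 h, whereas sham mice had the same surgery without the enzyme. Every group carried floxed Fabp4, the gene of a fatty acid carrier protein. The Fabp4CKO groups also carried a tamoxifen-inducible Cre under control of Tmem119, a microglial gene, and received tamoxifen before surgery, so that Fabp4 was to be deleted in microglia and not in other cells. Whether the Fabp4fl/fl mice received tamoxifen, and the age of the floxed mice, were not given in the sources used here. ICH mice without neurological deficits were left out by the study, which bears on what the ICH groups represent. RNA was extracted from whole tissue, in which fewer cells of a type and less RNA per cell cannot be told apart.

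MHC class I molecules carry peptides from the cytosol to the cell surface, where CD8 T cells and NK cells read them. A heavy chain pairs with B2m in the endoplasmic reticulum, the TAP transporter pumps in peptides cut by the proteasome, and tapasin (Tapbp) holds the empty molecule at the transporter until a peptide fits. Interferons induce the whole set of genes, in part through Nlrc5, which acts on a shared promoter module of class I genes. Most resting neurons carry little class I on their surface, while microglia, endothelial cells and infiltrating leukocytes carry more.

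The promoters of the class I chains are shown because these genes changed together in the data below, and because the elements that interferon, NF-kB and Nlrc5 are known to act through lie close to the start site. Promoter sequences from RefSeq (GRCm38.p6) were matched for 7 of the 9 genes; Tap2 and Nlrc5 had no entry. The 190 bases before the first start site listed are printed 5′ to 3′ on the gene's strand for H2-K1 (chr17:34000348-34000537, minus strand), H2-Q4 (chr17:35379427-35379616, plus strand) and B2m (chr2:122147497-122147686, plus strand). In GENCODE M21 the H2-Q4 window lies within an exon of the antisense gene Gm11131, the B2m window lies within Patl2 on the other strand and reaches 1 base into B2m's own first exon, and the H2-K1 window overlaps no annotated transcript. Capitals mark matches, on either strand, to 5 short motifs that are spelled out in the paragraph that follows the sequences.
H2-K1: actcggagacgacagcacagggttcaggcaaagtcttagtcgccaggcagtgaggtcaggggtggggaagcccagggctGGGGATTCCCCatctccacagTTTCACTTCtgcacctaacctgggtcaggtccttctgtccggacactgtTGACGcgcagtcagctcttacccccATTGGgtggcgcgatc
H2-Q4: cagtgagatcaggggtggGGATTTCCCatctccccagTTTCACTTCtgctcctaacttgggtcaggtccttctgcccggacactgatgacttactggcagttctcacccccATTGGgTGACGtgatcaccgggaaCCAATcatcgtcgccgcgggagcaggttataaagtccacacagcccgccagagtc
B2m: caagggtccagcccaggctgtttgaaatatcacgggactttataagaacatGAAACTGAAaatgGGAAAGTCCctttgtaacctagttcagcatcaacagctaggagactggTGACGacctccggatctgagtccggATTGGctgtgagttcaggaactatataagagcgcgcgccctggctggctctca

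The NF-kB core GGANTNNCC was found on either strand in the windows of H2-K1, H2-D1, H2-Q4 and B2m, 4 of the 7 genes, against 13% of all 32851 promoter windows of the same 300 bases. In H2-K1 and H2-D1 it matched on both strands at overlapping positions. The interferon element of class I genes, GAANTGAAA, was present in H2-K1, H2-D1 and H2-Q4, and in 1.83% of all windows, while the interferon-stimulated response element core GAAANNGAA was present in B2m and H2-T23 and in 8.56% of all windows. The CCAAT box lay in the windows of all 7 genes against 37.4% of all windows, and the TGACG core of a cyclic AMP element in 5 of 7 against 20.8%. No window held the gamma-activated site TTCNNNGAA, which 8.3% of all windows hold. Over the 190 upstream bases, H2-K1 and H2-D1 shared 117 of 130 aligned bases (90%), H2-K1 and H2-Q4 82.7%, and H2-K1 and H2-T23 61.2%. GAANTGAAA and TGACG were added to the motifs after the sequences were read, so their contrast with all windows is no test. The windows of H2-K1, H2-D1 and H2-Q4 resemble one another, so their matches are not separate observations. Such matches are descriptions of the sequence, and binding was not measured.

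Across the 12 libraries the total count ranged from 15650813 to 22406216, and mitochondrial genes took 7.90% to 16.3% of it, highest in ICH-Fabp4fl/fl mouse 1. Their share was 16.3%, 10.4% and 11.9% in the ICH-Fabp4fl/fl mice and 8.37%, 9.50% and 7.90% in the ICH-Fabp4CKO mice, with ranges that did not overlap. Fabp4 had 46, 63 and 24 reads in the ICH-Fabp4fl/fl mice and 5, 3 and 10 reads in the ICH-Fabp4CKO mice, against 0 to 2 reads in every sham mouse. ICH-Fabp4CKO mouse 1 stood apart in having 1 read of Y-linked genes, where the rest had 1302 to 2251. Microglia markers were present in every library, with 7 of 8 listed markers measured and none at 0 throughout a group.

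Levels are in CPM, that is reads per 1e+06 reads of the TMM-scaled library, and per kilobase of exon where genes are compared with each other. In Sham-Fabp4fl/fl mice B2m had the highest level per kilobase, 162 ± 82.1 CPM per kb (SD, n = 3), followed by H2-D1 at 38.7 ± 21.6 and H2-K1 at 30.5 ± 16.2, whose ranges overlapped. Tapbp had 10.7 ± 0.583 CPM per kb, H2-T23 8.08 ± 2.61, H2-Q4 4.02 ± 2.29, Tap2 2.41 ± 0.512 and Tap1 1.34 ± 0.552, each with a range that overlapped that of the next. Nlrc5 was lowest at 0.177 ± 0.0307 CPM per kb, below the range of Tap1. After ICH in Fabp4fl/fl mice B2m reached 1092 ± 338 CPM per kb and Nlrc5 2.00 ± 0.270, still the highest and the lowest of the set. The order of the transporter subunits was the reverse of that in sham. Tap2 lay above Tap1 in sham, whereas after ICH Tap1 had 14.9 ± 1.3 CPM per kb and Tap2 9.11 ± 1.35 in Fabp4fl/fl mice, with ranges that did not overlap. In ICH-Fabp4CKO mice the order was the same, at 12.8 ± 4.43 for Tap1 and 9.30 ± 2.81 for Tap2, but the ranges overlapped. Within each of these mice the count of Tap1 was above that of Tap2, at 1.17, 1.07 and 1.26 times. In the Sham-Fabp4CKO mice it was 0.454, 0.377 and 0.451 times.

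**Figure D1:**
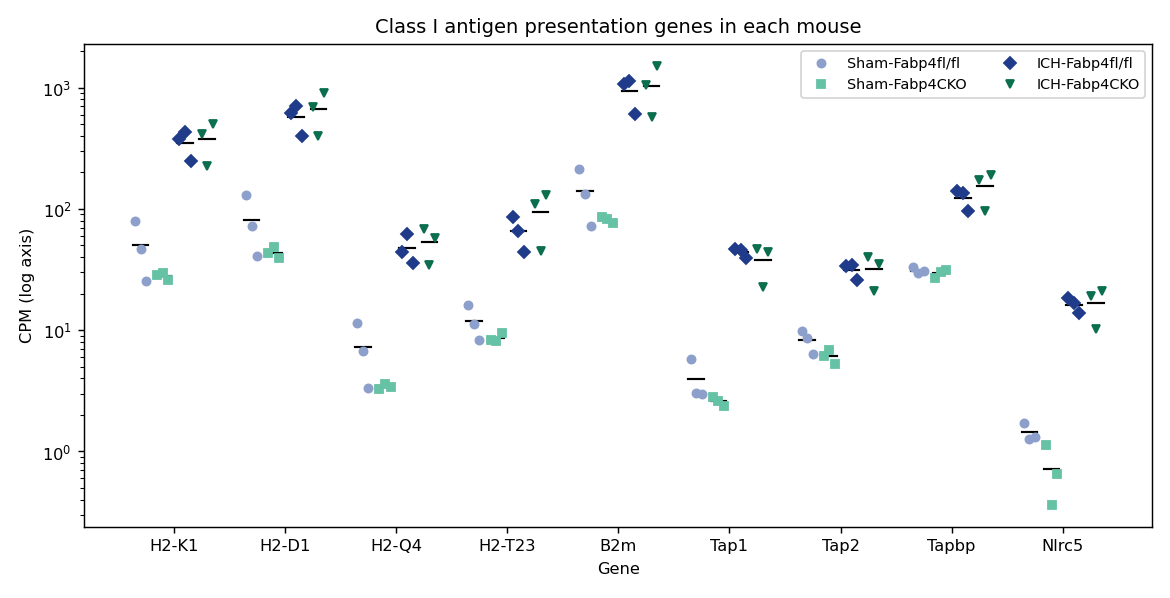
CPM (log axis) of the 9 class I genes in each mouse, with 3 points per group and a bar at the group mean. Every ICH point lies above every sham point of the same gene, and the points of the 2 genotypes overlap after ICH.

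Whether ICH changed the class I machinery was asked first in mice with intact Fabp4. All 9 genes rose in ICH-Fabp4fl/fl against Sham-Fabp4fl/fl, with log2 fold changes from 1.93 for Tap2 to 3.51 for Nlrc5 and adjusted p from 0.000287 to 0.00295 (quasi-likelihood test of edgeR, Benjamini-Hochberg adjusted over 14719 genes). Of all genes tested, 26.2% rose by the same rule. The median of the 9 log2 fold changes was 2.76, and that of all genes tested was 0.02. Every ICH mouse lay above every sham mouse for each of the 9, which held for 33.0% of all genes tested.

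The classical heavy chains H2-K1 and H2-D1 present peptides to CD8 T cells. H2-K1 had 78.8, 47.1 and 25.3 CPM in the 3 Sham-Fabp4fl/fl mice and 374, 431 and 247 CPM in the 3 ICH-Fabp4fl/fl mice. H2-D1 had 131, 72.2 and 41.3 CPM in the same sham mice and 618, 712 and 401 CPM in the ICH mice. Both were highest in sham mouse 1 and lowest in sham mouse 3, and both were lowest in mouse 3 of the ICH group. H2-K1 rose 7.02-fold (log2 fold change 2.81, SE 0.43, adjusted p = 0.00252, edgeR) and H2-D1 7.15-fold (2.84, SE 0.45, adjusted p = 0.00279, edgeR). In Fabp4fl/fl mice the count of H2-D1 was a nearly fixed multiple of that of H2-K1, 1.61 ± 0.0649 in sham and 1.64 ± 0.0158 after ICH (SD, n = 3). In Fabp4CKO mice the multiple was 1.55 ± 0.0610 in sham and 1.76 ± 0.0635 after ICH, with ranges that did not overlap.

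The non-classical heavy chains followed. H2-T23 encodes Qa-1, which presents signal peptides of other class I chains to the NK cell receptor CD94/NKG2A, and H2-Q4 encodes a chain of the Qa-2 region. H2-T23 had 16.0, 11.3 and 8.36 CPM in sham and 85.9, 65.9 and 44.0 CPM after ICH, a 5.54-fold rise (log2 fold change 2.47, SE 0.33, adjusted p = 0.00137, edgeR). H2-Q4 had 11.5, 6.74 and 3.36 CPM in sham and 44.4, 61.5 and 35.7 CPM after ICH, a 6.58-fold rise (2.72, SE 0.44, adjusted p = 0.00294, edgeR). As for the classical chains, sham mouse 1 was highest and sham mouse 3 lowest for both.

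The heavy chains share stretches of sequence with one another, and reads can be split between them. Of the 50-base stretches of each gene's coding transcripts in GENCODE M21, 28.8% for H2-T23, 24.3% for H2-Q4, 13.9% for H2-D1 and 6.87% for H2-K1 occur in another gene, against 0% for B2m and Nlrc5 and at most 3.50% for Tap1, Tap2 and Tapbp. Of the 100-base stretches, 7.28% for H2-T23, 2.66% for H2-Q4, 4.09% for H2-D1 and 0% for H2-K1 do. The deposited counts of the heavy chains were not whole numbers in 10 of 12 libraries for H2-D1 and H2-Q4, in 8 for H2-T23 and in 3 for H2-K1, so that the values of single heavy chains, H2-Q4 and H2-T23 above all, are uncertain. B2m, the chain that all of these proteins share, had whole counts in every library.

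B2m had 213, 132 and 72.7 CPM in Sham-Fabp4fl/fl and 1073, 1138 and 606 CPM in ICH-Fabp4fl/fl. Every ICH value lay above every sham value. The rise was 6.80-fold (log2 fold change 2.76, SE 0.44, adjusted p = 0.00295, edgeR), and sham mouse 1 was again the highest of its group.

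Tap1 and Tap2 form the channel that carries peptides into the endoplasmic reticulum. Tap1 had 5.84, 3.04 and 3.0 CPM in sham and 46.8, 45.7 and 39.7 CPM after ICH, an 11.2-fold rise (log2 fold change 3.49, SE 0.29, adjusted p = 0.000352, edgeR). Tap2 had 9.91, 8.56 and 6.41 CPM in sham and 33.9, 34.2 and 26.0 CPM after ICH, a 3.82-fold rise (1.93, SE 0.21, adjusted p = 0.000733, edgeR). The 95% intervals of the log2 fold changes, 2.81 to 4.16 for Tap1 and 1.43 to 2.43 for Tap2, did not overlap. The count of Tap1 was 0.470 ± 0.117 times that of Tap2 in sham and 1.42 ± 0.0993 times after ICH (SD, n = 3), and the highest sham ratio, 0.589, lay below the lowest ICH ratio, 1.34.

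Tapbp, which edits the peptides that class I molecules keep, had 32.9, 29.7 and 30.5 CPM in sham and 139.9, 134 and 96.0 CPM after ICH. It rose 4.02-fold (log2 fold change 2.01, SE 0.18, adjusted p = 0.000408, edgeR). Unlike the heavy chains and B2m, its sham values were close together. Nlrc5, the transactivator, had 1.72, 1.27 and 1.31 CPM in sham and 18.3, 16.6 and 13.9 CPM after ICH. Its 11.4-fold rise (3.51, SE 0.23, adjusted p = 0.000287, edgeR) was the largest of the 9 and started from the lowest level.

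The same comparison in mice with the deletion gave the same direction. All 9 genes rose in ICH-Fabp4CKO against Sham-Fabp4CKO, with log2 fold changes from 2.39 for Tapbp to 4.55 for Nlrc5, a median of 3.77 against 0.01 over all genes, and adjusted p from 0.00478 to 0.00589 (quasi-likelihood test of edgeR, Benjamini-Hochberg adjusted over 14737 genes). Of all genes tested, 24.5% rose, and 32.1% had every ICH mouse above every sham mouse, as all 9 class I genes did. The Sham-Fabp4CKO mice were close together: H2-K1 had 28.7, 29.7 and 25.8 CPM, H2-D1 43.1, 48.1 and 39.3 CPM, and B2m 85.7, 82.9 and 76.5 CPM. The ICH-Fabp4CKO mice spread more, with 413, 224 and 497 CPM for H2-K1, 697, 396 and 899 CPM for H2-D1, and 1042, 571 and 1509 CPM for B2m. Mouse 2 was the lowest of the group for all of these. The fold changes were 13.6 for H2-K1 (log2 3.77, SE 0.32), 15.4 for H2-D1 (3.95, SE 0.34) and 12.9 for B2m (3.69, SE 0.38).

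Of the other chains in the Fabp4CKO mice, H2-Q4 had 3.26, 3.63 and 3.42 CPM in sham and 68.6, 34.6 and 57.7 CPM after ICH (log2 fold change 3.98, SE 0.29), and H2-T23 had 8.23, 8.16 and 9.46 CPM in sham and 109, 45.0 and 129 CPM after ICH (3.47, SE 0.41). Tap1 had 2.79, 2.59 and 2.39 CPM in sham and 46.6, 22.8 and 44.1 CPM after ICH (3.88, SE 0.32), and Tap2 6.15, 6.85 and 5.29 CPM in sham and 39.9, 21.2 and 35.0 CPM after ICH (2.41, SE 0.27). Mouse 2 of the ICH group was lowest for each of these as well. Tapbp had 27.1, 29.98 and 31.6 CPM in sham and 174, 96.7 and 189.6 CPM after ICH (2.39, SE 0.27), and Nlrc5 1.13, 0.363 and 0.656 CPM in sham and 19.0, 10.2 and 21.2 CPM after ICH (4.55, SE 0.49). Nlrc5 in sham rested on as few as 8 reads in a library. The 9 calls did not depend on 1 mouse: with any 1 of the 6 libraries left out, all 9 still passed, although the number of genes past the threshold over the whole table moved from 5247 to between 751 and 10099.

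**Figure D2:**
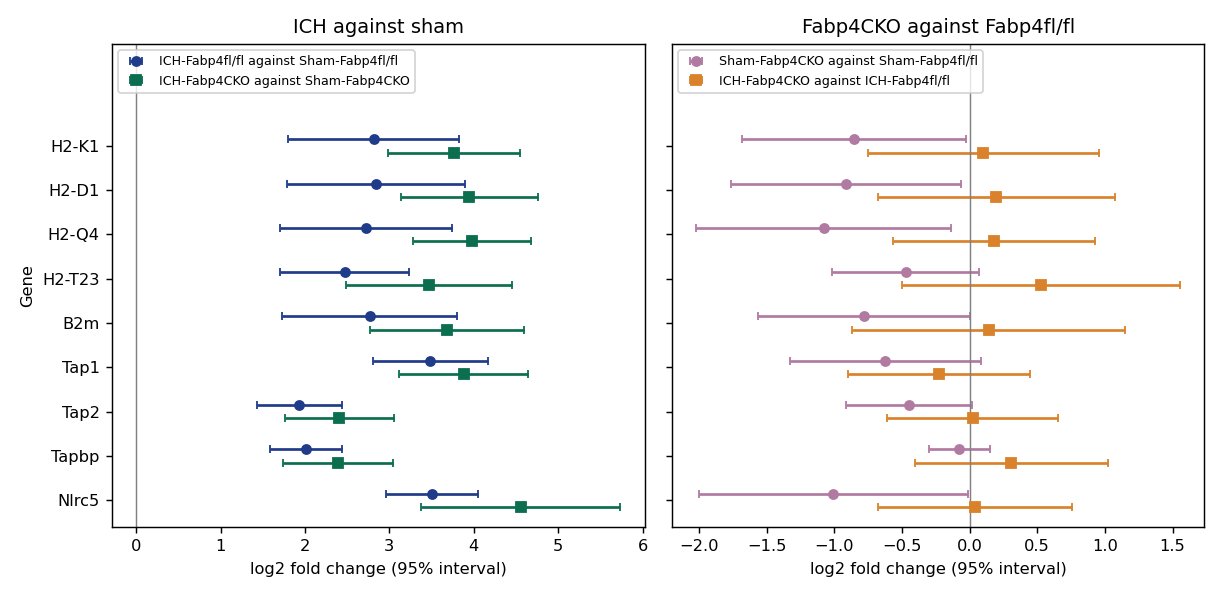
log2 fold change of each class I gene with its 95% interval, for ICH against sham in each genotype (left) and for Fabp4CKO against Fabp4fl/fl in sham and after ICH (right). The ICH intervals all lie above 0, while the genotype intervals after ICH all include 0.

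Whether microglial Fabp4 deletion changed class I expression after ICH was asked by comparing ICH-Fabp4CKO with ICH-Fabp4fl/fl. None of the 9 genes passed the threshold, with log2 fold changes from -0.23 for Tap1 to 0.53 for H2-T23, a median of 0.14 against 0.06 over all genes, and adjusted p from 0.646 to 0.979 (quasi-likelihood test of edgeR, Benjamini-Hochberg adjusted). No gene of the 14600 tested passed either (0.0%), while 12.2% had an unadjusted p under 0.05, as none of the 9 did, and DESeq2 called 578 genes of the whole table and none of the 9. The groups overlapped for each of the 9, where 19.8% of all genes tested had groups that did not overlap. The 95% interval of the log2 difference was -0.75 to 0.95 for H2-K1, -0.68 to 1.08 for H2-D1, -0.87 to 1.15 for B2m and -0.50 to 1.56 for H2-T23, so that changes of up to 1.94-fold for H2-K1 and 2.22-fold for B2m in ICH-Fabp4CKO lie within the error. For the transporter it was -0.90 to 0.45 for Tap1 and -0.61 to 0.66 for Tap2, for Tapbp -0.41 to 1.02 and for Nlrc5 -0.68 to 0.75. Small differences could not be detected with this spread.

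Within each ICH group the same mouse was lowest for all 9 class I genes, while the highest mouse differed between genes. The summed level of the 9 genes was 2434, 2638 and 1509 CPM in the ICH-Fabp4fl/fl mice and 2610, 1422 and 3381 CPM in the ICH-Fabp4CKO mice. Mouse 3 of the former and mouse 2 of the latter were the low ones. The same mice had the highest summed neuron markers of their groups, at 4108 CPM against 1566 and 2411 CPM in the other ICH-Fabp4fl/fl mice and at 4486 CPM against 2222 and 1695 CPM in the other ICH-Fabp4CKO mice. They also had the lowest summed monocyte and macrophage markers, at 787 CPM against 1923 and 1576 CPM, and at 1030 CPM against 5101 and 8802 CPM. The link was not particular to these lists. The same mice were also lowest of their groups in summed endothelial, pericyte, neutrophil, B cell, dendritic cell and MHC class II genes. They were highest in astrocyte markers and in T and NK cell markers, the latter a sum carried mostly by Cd4. They were not the lowest of both groups for microglia, oligodendrocyte or erythroid markers or interferon-stimulated genes. Endothelial markers summed to 566 CPM against 1238 and 840 CPM, and to 297 CPM against 446 and 380 CPM, and astrocyte markers to 7912 CPM against 5714 and 7167 CPM, and to 8136 CPM against 6081 and 5886 CPM. All 8 monocyte and macrophage markers were measured, and Chil3 was at 0 in every Sham-Fabp4CKO mouse. The part of these cell types in the spread of the class I genes was not tested.

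Microglia markers summed to 1183 to 1289 CPM in ICH-Fabp4fl/fl and 1358 to 4031 CPM in ICH-Fabp4CKO, and to 331 to 391 CPM and 334 to 371 CPM in the corresponding sham groups. The 10 endothelial markers summed to 566 to 1238 CPM in ICH-Fabp4fl/fl and 297 to 446 CPM in ICH-Fabp4CKO, against 236 to 253 CPM in all sham mice, and none was at 0 throughout a group. T and NK cell markers summed to 20.2 to 64.9 CPM after ICH and 17.8 to 59.4 CPM in sham, a sum carried mostly by Cd4, which did not pass the test, with group means of 24.1 to 42.4 CPM. Of the others Trac had means of at most 2.36 CPM, and 6 of 8 tested markers rose in ICH-Fabp4fl/fl and 2 of 4 in ICH-Fabp4CKO. Over all genes tested, 26.2% and 24.5% rose. Only 2 of the 10 markers, Cd4 and Trac, had enough reads to be tested between the sham groups. The others passed the filter through the ICH libraries, which favours a rise. Cd3d was at 0 in all sham mice, and Cd8a, Ncr1 and Klrb1c were at 0 in all Sham-Fabp4CKO mice. The share of these cell types in the class I level was not tested.

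**Figure D3:**
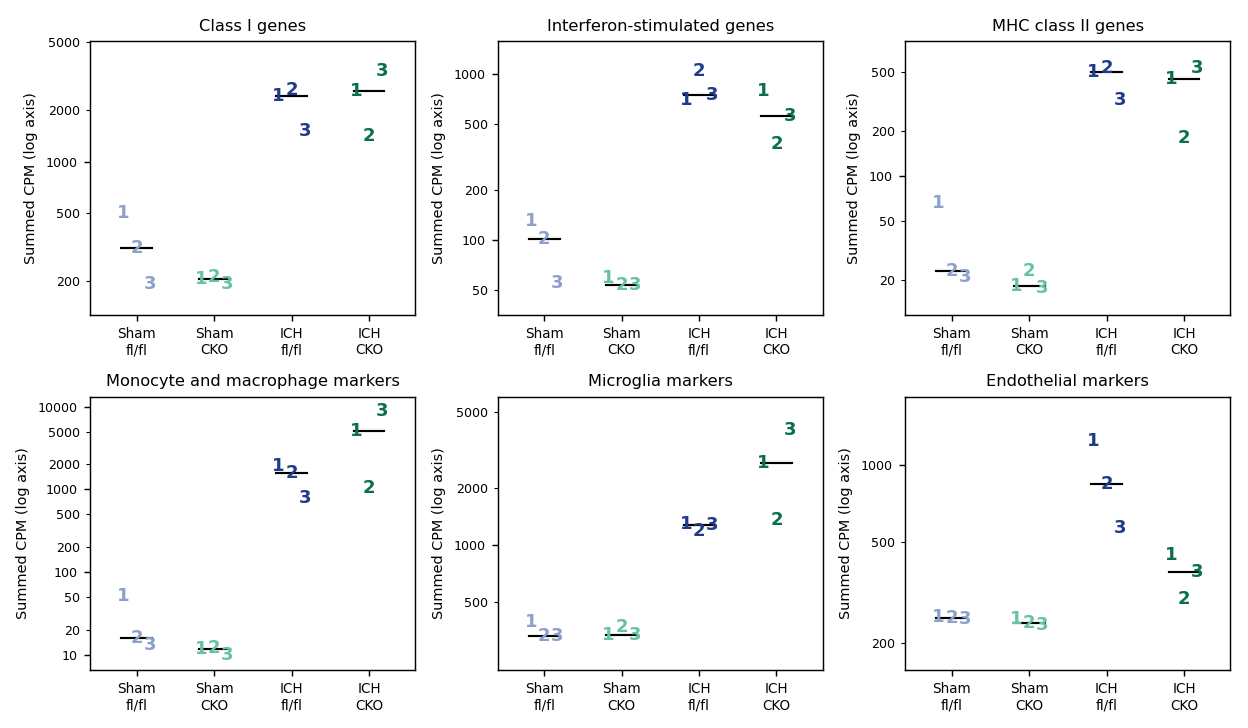
Summed CPM (log axis) of the 9 class I genes and of 5 other gene lists; each digit is the mouse of that number in its group and the bar is the group median. ICH-Fabp4fl/fl mouse 3 and ICH-Fabp4CKO mouse 2 are lowest in their groups for the class I genes and for the monocyte and macrophage markers, and Sham-Fabp4fl/fl mouse 1 is the highest sham mouse for the class I genes, interferon-stimulated genes, MHC class II genes and monocyte markers.

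In the absence of hemorrhage, the log2 fold change of Sham-Fabp4CKO against Sham-Fabp4fl/fl was below 0 for each of the 9 genes, from -0.08 for Tapbp to -1.08 for H2-Q4, with a median of -0.78. None passed the threshold, with adjusted p from 0.480 to 0.747 (quasi-likelihood test of edgeR, Benjamini-Hochberg adjusted), where 0.111% of 14395 genes did. An unadjusted p under 0.05 was found for H2-K1, H2-D1, H2-Q4 and Nlrc5, 4 of 9, against 10.2% of all genes tested. The groups did not overlap for Tap1 and Nlrc5, 2 of 9, against 14.9% of all genes. For every gene but Nlrc5, the highest and lowest Sham-Fabp4fl/fl mice lay farther apart than the group means did. H2-K1 in mouse 1 was 78.8 CPM and in mouse 3 25.3 CPM, and the latter lay below all 3 Sham-Fabp4CKO mice.

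That difference rested on which Sham-Fabp4fl/fl mice were used. Without mouse 1 the median of the 9 log2 fold changes was -0.34 and no gene passed, and without mouse 3 it was -1.08 and 6 of the 9 passed as lower in Sham-Fabp4CKO, with H2-K1 at -1.18 and B2m at -1.09, when 9.12% of all genes tested passed as lower. Sham-Fabp4fl/fl mouse 1 also had the highest summed monocyte and macrophage markers of the sham mice, 51.6 CPM against 9.98 to 16.1 CPM in the other 5, and the highest summed MHC class II genes, 65.3 CPM against 17.5 to 23.1 CPM. Interferon-stimulated genes summed to 131, 101 and 55.3 CPM in the 3 Sham-Fabp4fl/fl mice and to 53.6 to 59.1 CPM in Sham-Fabp4CKO. Their part in the class I values of that mouse was not tested.

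The difference of the ICH response between genotypes was tested as an interaction over all 12 libraries. It uses the same mice as the pairwise comparisons, which also share groups with one another and are not independent. The log2 estimates were above 0 for all 9 genes, from 0.33 for Tapbp to 1.21 for H2-Q4, with a median of 0.91 against 0.03 over all genes. None passed the threshold, with adjusted p from 0.509 to 0.831 (quasi-likelihood test of edgeR, Benjamini-Hochberg adjusted), where 0.0199% of 15089 genes did. None of the 9 had an unadjusted p under 0.05, which 9.94% of all genes had. The intervals ran from -0.33 to 2.15 for H2-K1, from -0.02 to 2.45 for H2-Q4 and from -0.44 to 2.19 for B2m. Without Sham-Fabp4fl/fl mouse 1 the median was 0.42.

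Among the genes that feed or surround this machinery, the immunoproteasome moved with it. Its subunits Psmb8 and Psmb9 replace constitutive catalytic subunits and cut peptides better suited to class I molecules. All 5 immunoproteasome genes rose in ICH-Fabp4fl/fl (median log2 fold change 1.61), led by Psmb8 at 3.40 (SE 0.35) and Psmb9 at 3.36 (SE 0.30), against 1 of 3 constitutive catalytic subunits, Psmb6 at 0.67 (SE 0.19). All 5 also rose in ICH-Fabp4CKO, where Psmb8 reached 4.43 (SE 0.42) and Psmb9 3.63 (SE 0.45), and none of the 3 constitutive subunits passed. Over all genes tested, 26.2% rose in ICH-Fabp4fl/fl and 24.5% in ICH-Fabp4CKO. Leaving out Sham-Fabp4CKO mouse 1 or mouse 2 reduced the 5 to 2. The genes past the threshold over the whole table then fell too, from 5247 to 847 of 14956 and 842 of 14988. The call of Psmb6 was lost without any 1 of the Sham-Fabp4fl/fl mice.

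Of 9 genes for peptide trimming and loading, 5 rose in ICH-Fabp4fl/fl and none fell (median log2 fold change 0.63), where 26.2% of all genes tested rose. Erap1, the aminopeptidase that trims peptides in the endoplasmic reticulum, rose by 1.81 on the log2 scale (SE 0.21), and Sec61a1, a subunit of the protein translocon, by 1.19 (SE 0.18). The count was 3 without Sham-Fabp4fl/fl mouse 1 or mouse 2 or without ICH-Fabp4fl/fl mouse 2. In ICH-Fabp4CKO 3 of the 9 rose, near the 24.5% of all genes tested that rose there. Erap1 was at 2.88 (SE 0.43) and Sec61a1 at 1.14 (SE 0.25). The count of 3 was 0 or 1 without any 1 of the Sham-Fabp4CKO mice or without ICH-Fabp4CKO mouse 1. Over all genes, 751 to 1583 then passed the threshold, higher or lower, against 5247 in the main fit. Without ICH-Fabp4CKO mouse 2 the count was 9, when 10099 of all 14963 genes tested passed, higher or lower.

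The counts below stand against 26.2% of all genes tested that rose in ICH-Fabp4fl/fl and 24.5% in ICH-Fabp4CKO. Of 24 other class I and class I-like heavy chains listed, 10 were expressed enough to be tested. In ICH-Fabp4fl/fl 6 rose and none fell, with H2-Q7 at a log2 fold change of 3.17 (SE 0.62), the lipid-presenting Cd1d1 at 2.96 (SE 0.56) and the iron regulator Hfe at 2.16 (SE 0.25), while H2-Q6 at 2.17 (SE 0.78) did not pass (adjusted p = 0.0559, edgeR), though it did with DESeq2 and without Sham-Fabp4fl/fl mouse 1 or mouse 3. In ICH-Fabp4CKO 9 rose and 1, H2-Q2, fell by 2.5 on the log2 scale, with H2-Q7 at 4.21 (SE 0.35), H2-Q6 at 3.63 (SE 0.44) and H2-M3 at 3.17 (SE 0.50), the chain that presents formylated peptides. The call of H2-Q2 was lost without any 1 library but ICH-Fabp4CKO mouse 2 (log2 fold change -2.70 to -2.05, adjusted p 0.0960 to 0.124, edgeR). The count of 10 was 5 without Sham-Fabp4CKO mouse 1 and 4 without mouse 2 or mouse 3. H2-Q6 and H2-Q7 share 50-base stretches with H2-Q4, and their single values are uncertain.

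Regulators of class I transcription rose in part, where 26.2% of all genes tested rose in ICH-Fabp4fl/fl and 24.5% in ICH-Fabp4CKO. Of 18 factors, 12 rose and 1, Rfxap, fell by 0.56 on the log2 scale in ICH-Fabp4fl/fl. Among those that rose were Ciita, the class II transactivator, at a log2 fold change of 3.78 (SE 0.69), Irf7 at 3.41 (SE 0.53), Irf8 at 3.33 (SE 0.26) and Irf1 at 2.41 (SE 0.16). Ciita had too few reads to be tested between the sham groups and passed the filter through the ICH libraries, which favours a rise. The call of Rfxap was lost without mouse 1 or mouse 2 of either group (log2 fold change -0.66 to -0.50, adjusted p 0.0502 to 0.0802, edgeR). In ICH-Fabp4CKO 12 rose and none fell, with Irf8 at 4.12 (SE 0.44), Irf7 at 3.99 (SE 0.38) and Irf1 at 2.51 (SE 0.28). Interferon receptors and their kinases were represented by 7 tested genes, of which 5 rose in ICH-Fabp4fl/fl, led by Ifnar2, a chain of the type I interferon receptor, at 1.65 (SE 0.17). In ICH-Fabp4CKO 6 of the 7 rose, with Ifngr1 at 2.16 (SE 0.38) and Ifnar2 at 2.15 (SE 0.41), a count that was 0 without any 1 of the Sham-Fabp4CKO mice and 2 without ICH-Fabp4CKO mouse 1. The interferon transcripts Ifng and Ifnb1 had at most 4 and 3 reads in any library and were not tested.

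Receptors that read class I molecules were rare. Of 11 listed, 4 were tested in ICH-Fabp4fl/fl and 5 in ICH-Fabp4CKO, and all of these rose. Over all genes tested, 26.2% and 24.5% rose. Only 1 of the 11, Pirb, had enough reads to be tested between the sham groups. The others passed the filter through the ICH libraries, so that a rise was all but set in advance and the counts say little. Pirb, an inhibitory receptor for class I on myeloid cells and neurons, had 0.463 ± 0.124 CPM in Sham-Fabp4fl/fl, 32.7 ± 11.5 in ICH-Fabp4fl/fl, 0.387 ± 0.313 in Sham-Fabp4CKO and 59.3 ± 43.1 in ICH-Fabp4CKO (SD, n = 3). Its log2 fold change was 6.13 (SE 0.39) in the former pair and 7.25 (SE 1.05) in the latter. The count of 5 was 3 without Sham-Fabp4CKO mouse 2, when 842 genes passed over the whole table, against 5247 in the main fit. None of the receptors could be tested where 10 counts were required in every library, and 8 rose in ICH-Fabp4fl/fl with no filter on low counts.

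Class II presentation genes rose as a set in both genotypes, 9 of 9 in each, with a median log2 fold change of 3.78 in ICH-Fabp4fl/fl and 4.78 in ICH-Fabp4CKO. Both medians are the value of Ciita, which is also counted among the 18 factors above. Ciita had few reads in Sham-Fabp4CKO, so the second median is uncertain. H2-Ab1 rose by 4.48 (SE 0.53) and 6.76 (SE 0.71) and the invariant chain Cd74 by 3.88 (SE 0.72) and 5.86 (SE 0.50). All 18 interferon-stimulated genes rose in both genotypes too, with medians of 3.13 and 3.70. Between the sham groups, 16 of these 18 and 8 of the 9 class II genes had enough reads to be tested. The others, Mx1, Cxcl9 and Ciita, passed the filter through the ICH libraries, which favours a rise. The share that rose over all genes tested was 26.2% in ICH-Fabp4fl/fl and 24.5% in ICH-Fabp4CKO. Cxcl10, a chemokine for T cells, rose by 6.81 (SE 0.40) and 6.56 (SE 0.76), and the RNA sensor Oas1a by 4.25 (SE 0.38) and 5.53 (SE 0.52). Cxcl9 was at 0 in every Sham-Fabp4CKO mouse and no fold is given for it there.

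Between the genotypes after ICH none of these lists had a gene past the threshold with edgeR, while DESeq2 called Jak1, a kinase of the interferon receptors (log2 fold change 0.56, adjusted p = 0.0478), and Iigp1. Over the whole table DESeq2 called 578 of 14600 genes there. The interferon-stimulated genes had log2 fold changes below 0 for 17 of 18, with a median of -0.55. An unadjusted p under 0.05 was found for 6 of the 18, against 12.2% of all genes tested (edgeR). Iigp1, a GTPase that attacks the vacuoles of intracellular parasites, had 28.3 ± 3.92 CPM in ICH-Fabp4fl/fl and 9.30 ± 1.61 in ICH-Fabp4CKO (SD, n = 3), with groups that did not overlap and a log2 fold change of -1.61 (SE 0.20, adjusted p = 0.190, edgeR), and it passed with DESeq2 (adjusted p = 1.71e-09) and with all 12 libraries in one edgeR fit (adjusted p = 0.0434), alone among the 18. Gbp3 was at -0.87 (SE 0.27) and Cxcl10 at -1.19 (SE 0.44). The immunoproteasome had a median of -0.21, and the class I genes themselves, with 8 of 9 above 0, had the median of 0.14 given above. Whether the interferon-stimulated and class I lists differed from each other was not tested. In sham, 16 of 16 interferon-stimulated genes, 7 of 8 class II genes and 5 of 5 immunoproteasome genes had log2 fold changes below 0 in Sham-Fabp4CKO, with medians of -0.73, -1.26 and -0.38, and none passed with edgeR. DESeq2 called 1 interferon-stimulated gene, Iigp1 (adjusted p = 0.0413), and 1 class II gene, H2-Ab1 (adjusted p = 0.00435), in sham. It called 150 of 14395 genes there over the whole table. Without Sham-Fabp4fl/fl mouse 3, 13, 4 and 2 genes of the 3 lists passed, when 2862 of 14602 genes tested passed over the whole table.

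The likeness of the profiles was described over all 12 mice. Each gene's log2 CPM was centred on its mean, and the root-mean-square difference from the mean profile of the 9 genes was taken for 15089 genes, whose median was 1.63. B2m (0.16), H2-K1 (0.17), H2-D1 (0.22), H2-T23 (0.24) and H2-Q4 (0.25) lay closest among the members, then Tap1 (0.33), Tap2 (0.52), Nlrc5 (0.53) and Tapbp (0.56). Tapbp and Tap2 had the flattest profiles, and Nlrc5 the widest. The 10 other genes nearest to the mean profile were Parp9 (0.19), Rnf213 (0.20), Sp100 (0.20), Slfn5 (0.23), Parp14 (0.23), Tnfrsf1a (0.23), Plcg2 (0.24), Pld4 (0.25), Cd69 (0.25) and Aif1 (0.25). Parp9, Parp14, Sp100, Slfn5 and Rnf213 are known as interferon-inducible genes, Plcg2, Pld4 and Aif1 are expressed by microglia and other myeloid cells, Tnfrsf1a is a receptor for TNF and Cd69 an early activation marker of lymphocytes. The genes share the same 12 libraries and the step between sham and ICH, and the measure carries no test.

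**Figure D4:**
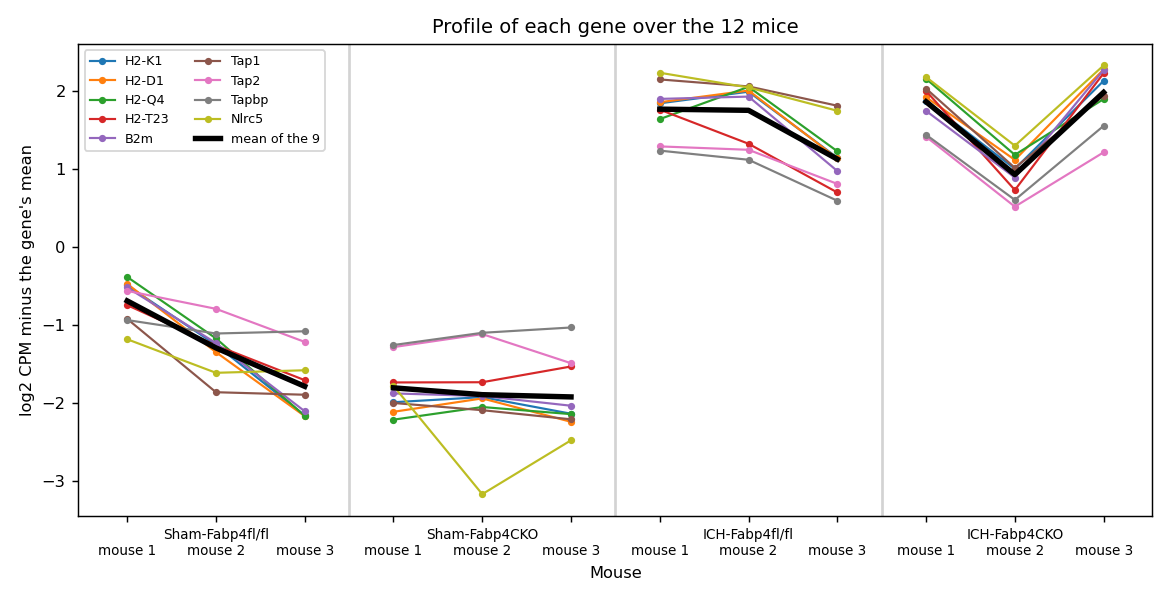
log2 CPM of each class I gene minus its mean over the 12 mice, by mouse and group, with the mean of the 9 genes in black. The mean lies between -1.92 and -0.69 in sham and between 0.93 and 1.98 after ICH, with dips at ICH-Fabp4fl/fl mouse 3 and ICH-Fabp4CKO mouse 2.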

How the data were processed

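Poly(A) RNA from brain tissue of 12 mice was sequenced on an Illumina NovaSeq. The submitters' processing notes name Bowtie2 2.2.8, HISAT2, StringTie 1.3.1 and DESeq2; the roles of these tools, the genome build and strand handling are not given in the sources used here. The authors deposited estimated counts (expected counts) per gene without normalization; 7.36% to 8.69% of values per library were not whole and were rounded. Groups and replicate numbers come from the sample titles. No source states how replicates were collected beyond the titles, so p-values measure the spread between these samples.

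Tests ran in edgeR 4.0.16 under R 4.3.3 (quasi-likelihood F-test, TMM, filterByExpr with minimum count 10 and minimum total 15). Each fit held the 2 groups of its comparison, or for the interaction the 12 libraries together, with Benjamini-Hochberg adjustment over all genes tested and a threshold of 0.05. The scripts were tested on simulated data. CPM used TMM over all 12 libraries, log2 CPM a prior count of 2, and exon lengths GENCODE M21 basic. Promoters came from the RefSeq table, 250 bases before to 50 after the start; GAANTGAAA and TGACG were added to the motifs after the sequences were read. Tables were made in Python 3.11.15 with pandas 2.3.3.

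The genes and lists were chosen with earlier results of these data known. Of each other list, counts and at most 4 genes with the largest absolute log2 fold change were named. Among these, no fold is printed under the gene's name for Klrk1, Cd8a, Lilrb4a, Cxcl9 and, in Fabp4CKO mice, Ciita, which had few or no reads in sham, a choice made after the values were seen, as was naming H2-Q2, Rfxap, Jak1 and Cd4. The value of Ciita in Fabp4CKO mice appears only as the class II median. Alternatives were relative log expression factors, total counts, DESeq2 1.42.0, no filter, a filter of 10 counts in each library, a block for replicate number, 1 fit over the 12 libraries, and each library left out. The least different pair of libraries had a chi-square of 7.45 per degree of freedom, so none was a copy of another. Total counts per library, 15650813 to 22406216, set the counting error, which intervals from the fit include.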

Additional observations from a re-analysis of the deposited data

How the results depend on the processing

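All 9 class I genes stayed past the threshold for ICH against sham in Fabp4fl/fl mice under every alternative, with log2 fold changes between 1.72 and 3.84 when 1 library was left out. In Fabp4CKO mice 9 of 9 passed in each, except with at least 10 counts in every library, where 8 could be tested and all 8 passed. Leaving out 1 library gave a count of 9 in each of these comparisons and of 0 after ICH between genotypes and for the interaction. In sham it gave 0 to 6, the 6 being H2-K1, H2-D1, H2-Q4, H2-T23, B2m and Tap2 without Sham-Fabp4fl/fl replicate 3.

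Signs near 0 turned between the genotypes after ICH. Tap2 was -0.0040 with relative log expression factors and with DESeq2, -0.034 with total counts and with all 12 libraries in one fit, and Nlrc5 -0.027 and -0.021 with the last 2. Without 1 library the log2 fold change ranged from -0.14 to 0.37 for H2-K1, -0.079 to 0.46 for H2-D1, -0.036 to 0.41 for H2-Q4, -0.22 to 0.43 for B2m, -0.40 to 0.032 for Tap1, -0.16 to 0.25 for Tap2 and -0.16 to 0.30 for Nlrc5. For the interaction Tap1 ranged from -0.056 to 0.61. The cause was not tested.

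For ICH against sham in Fabp4fl/fl mice, same-numbered mice had r = 0.196, 0.023 and 0.127 between their deviations from the group means. Their mean was 0.115, against -0.057 for other pairs. In the remaining pairwise comparisons it was -0.006, -0.144 and -0.067, against 0.003, 0.079 and 0.035. With 3 mice per group these values cannot settle whether the numbers pair the mice, and the main fits were unpaired. With the replicate number as a block no call of the 45 member values changed, the counts stayed at 9, 9, 0, 0 and 0, the medians were 2.85, 3.70, 0.08, -0.65 and 0.87 for the 5 comparisons, and Tap2 (-0.010) and Nlrc5 (-0.018) turned sign after ICH between genotypes. Over all genes, DESeq2 called 578 between genotypes after ICH against 0 with edgeR, 150 against 16 in sham and 266 against 3 for the interaction. One fit over all libraries called 362 between genotypes after ICH, and the filter of 10 counts called 2 in sham. The block called 1 for the interaction. Without 1 library the counts ran from 4181 to 8165 for ICH in Fabp4fl/fl, 751 to 10099 in Fabp4CKO, 0 to 2 between genotypes after ICH, 0 to 2862 in sham and 0 to 371 for the interaction.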
